A study of Mus musculus with 8 samples.

Results

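Idiopathic scoliosis is a sideways and rotated curvature of the spine with no known cause. Mouse counterparts of 10 human genes named beside it in association or family studies were followed here in mouse embryonic spines. They are *Lbx1*, *Adgrg6*, *Bnc2*, *Chl1*, *Poc5*, *Ptk7*, *Chd7*, *Slc39a8*, *Fbn1* and *Fbn2*. They were taken by name from what is reported at human loci, and they are 10 of the 27179 genes in the count table. Both these genes and the lists of related genes below were chosen with earlier results of these data known. All 10 were found by symbol and all 10 passed the filter on low counts, with 86 to 19155 reads per library. Whole spines of mouse embryos at stage E18.5 were sequenced as polyadenylated RNA in 4 groups of 2 libraries: male Pax1-Enh knockout (KO), male wild type (WT), female KO and female WT. Pax1-Enh is the label's name for the deleted stretch, and the title of the series places it at *Pax1*, a transcription factor gene of the sclerotome, and ties it to sex and to the adolescent form of the disease. Not given in the sources used here were the position of the deletion and the strain. The labels do not say whether the paired libraries of a group came from separate embryos, so p-values measure only the spread between these libraries, which may be technical.

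The genes have unlike roles. Fibrillins 1 and 2 (*Fbn1*, *Fbn2*) build the microfibrils that carry elastic fibres and hold latent TGF-beta, and *Adgrg6* (also called Gpr126) is an adhesion G protein-coupled receptor needed for Schwann cell myelination and active in cartilage. *Lbx1* is a homeobox gene of migrating muscle precursors and dorsal spinal interneurons, *Bnc2* a zinc finger gene of mesenchyme, and *Chd7* a chromodomain helicase mutated in CHARGE syndrome. *Ptk7* is a receptor of planar cell polarity, *Poc5* a protein of the centriole lumen, *Chl1* a neural adhesion molecule of the L1 family, and *Slc39a8* (ZIP8) a zinc and manganese importer. A spine holds cartilage, bone, muscle, nerve and connective tissue together, and in such bulk RNA fewer cells of a type and less RNA per cell cannot be told apart.

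Total counts were 59722279 to 67575728 in the KO libraries and 35181518 to 48021848 in the WT libraries, so depth and genotype cannot be told apart. All 8 defining markers of skeletal muscle, of neurons, of Schwann cells, of chondrocytes, of osteoblasts and of fibroblasts were detected in every library. The share of counts from mitochondrial genes was 4.56% and 15.6% in male KO, 18.3% and 20.9% in male WT, 13.6% and 4.66% in female KO, and 5.54% and 7.27% in female WT libraries. Summed adipocyte markers were at 228 to 467 CPM in KO libraries and 763 to 5071 CPM in WT libraries. Pancreas markers summed to 1277 CPM in female WT 1 and to 2.30 to 5.68 CPM in the other libraries, and lung markers to 36.1 CPM in male WT 1 and to 2.79 to 7.08 CPM in the others. CPM is the count scaled to the library size, which edgeR's trimmed mean of M-values had adjusted. *Pax1* itself had a log2 fold change of 0.24 over both sexes (SE 0.22, edgeR adjusted p = 0.923), and no count in the table covers the deletion, so these data do not check the genotype labels.

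Levels between genes were compared as CPM per kilobase of annotated exons. *Fbn1* stood first at 18.1 ± 4.22 (SD, n = 8 libraries), ahead of *Ptk7* at 11.7 ± 4.07, *Fbn2* at 9.88 ± 1.95 and *Chl1* at 8.41 ± 3.67 CPM per kilobase. A second tier held *Adgrg6* at 3.36 ± 0.995, *Poc5* at 2.74 ± 0.291 and *Slc39a8* at 2.16 ± 0.715. *Bnc2* (1.31 ± 0.346), *Chd7* (1.29 ± 0.324) and *Lbx1* (1.23 ± 0.388) were lowest. Every neighbouring pair in this order overlapped in range over the libraries. *Chl1* was above *Adgrg6* in 8 of 8 libraries, but *Ptk7* was above *Fbn2* in 4 of 8 and *Chd7* above *Lbx1* in 5 of 8. Among 16421 tested genes with a known exon length, *Fbn1* lay at percentile 85.4 and *Lbx1* at percentile 25.4 of the level per kilobase. With the longest transcript as the length, *Chl1* moved ahead of *Fbn2* and *Slc39a8* ahead of *Poc5*, and the other places held.

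**Figure D1:**
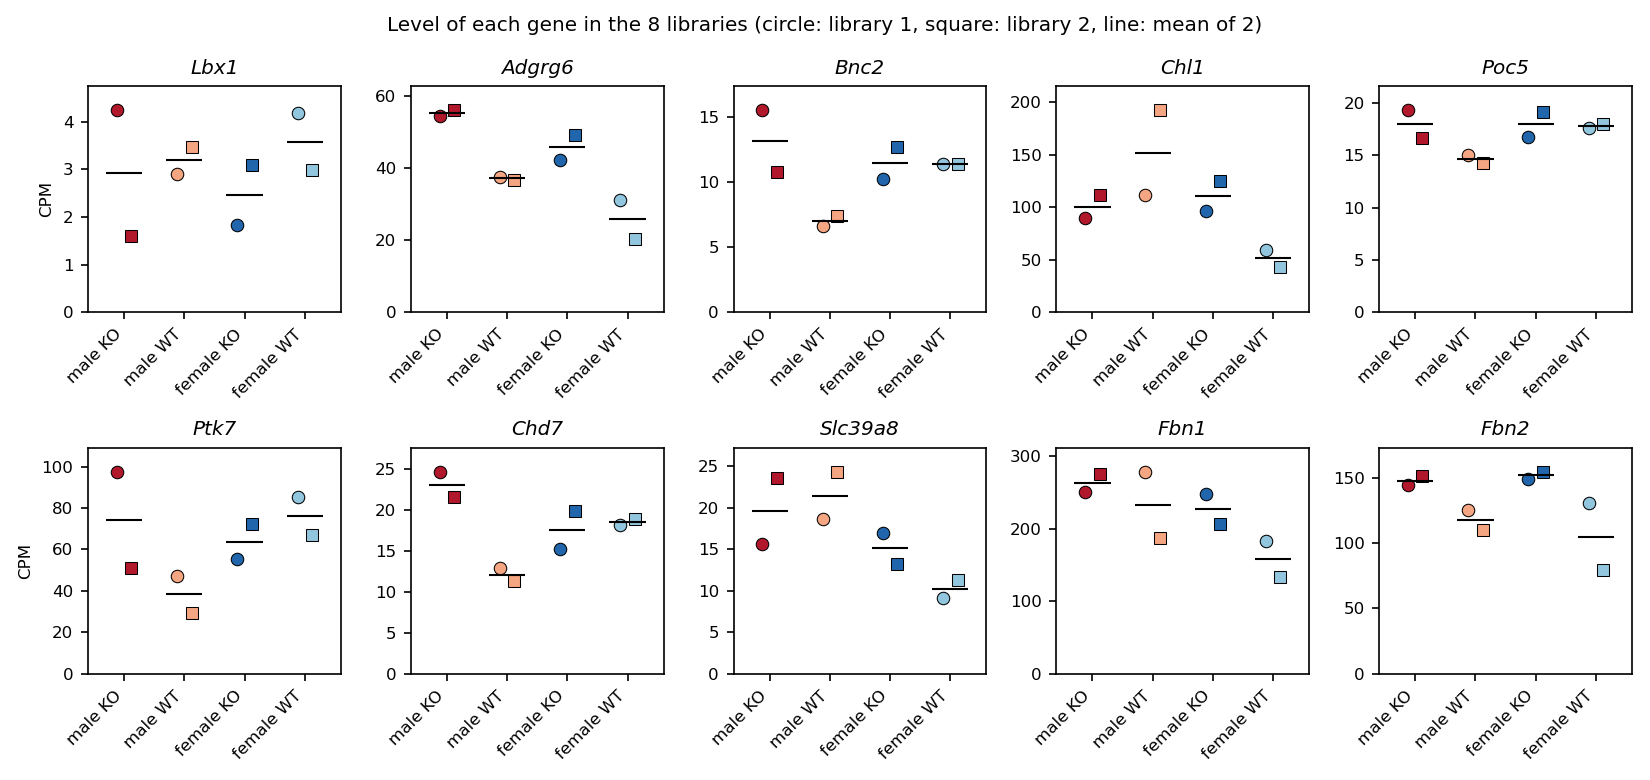
Level of each of the 10 genes in CPM (vertical axes, each from 0) in the male KO, male WT, female KO and female WT libraries, with circles for library 1, squares for library 2 and a line at the mean of 2. *Adgrg6* and *Fbn2* are higher in every KO than in every WT library, and *Chl1* is lower in male KO than in male WT by the mean but higher in female KO than in female WT.

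The first question was whether KO spines differ from WT spines at these genes. Over both sexes, 9 of the 10 genes had a positive log2 fold change, against 48.9% of the 18104 tested genes, with a median of 0.35, against -0.01 over all tested genes. No member passed an adjusted p of 0.05 in edgeR's quasi-likelihood test, where 0% of all tested genes passed. *Adgrg6* was the only member with an unadjusted p under 0.05, a mark reached as higher by 2.84% of all genes and as lower by 3.99%. DESeq2 and limma voom also called 0 members in this comparison, beside 0.779% and 0% of all genes. *Adgrg6* and *Fbn2* were higher in every KO library than in every WT library, an order held by 1.68% of the tested genes, and no member showed the opposite order, which 1.63% held.

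*Adgrg6* (Entrez gene 215798, chromosome 10, 14402583 to 14545723 in mm10, minus strand) had the largest value over both sexes. Its level was 54.5 and 56.1 CPM in male KO, 37.6 and 36.8 CPM in male WT, 42.4 and 49.3 CPM in female KO, and 31.3 and 20.3 CPM in female WT libraries. The 4 KO libraries lay above the 4 WT libraries without overlap, and within each genotype the males lay above the females. The log2 fold change was 0.70 over both sexes (SE 0.18, unadjusted p = 0.00348, edgeR adjusted p = 0.565, DESeq2 adjusted p = 0.0603), a fold of 1.63 with a 95% confidence interval of 1.23 to 2.15. In males it was 0.57 (SE 0.25) and in females 0.83 (SE 0.25), and these values differed between the sexes by 0.26 (female minus male, SE 0.35, edgeR adjusted p = 0.707). The value over both sexes stayed between 0.58 and 0.82 when any single library was dropped. In females it was 0.55 without female WT 2, the lowest of the 8 libraries. With the mitochondrial share as a covariate, *Adgrg6* was at 0.46 in males (SE 0.30), 0.86 in females (SE 0.24) and 0.71 over both sexes (SE 0.17).

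The chondrocyte markers ordered the genotypes in the same way. Their summed level was 28897 and 14530 CPM in male KO, 11490 and 7823 CPM in male WT, 13090 and 20749 CPM in female KO, and 12655 and 6336 CPM in female WT libraries, and 8 of the 8 markers had a positive log2 fold change over both sexes. Of all 14302 named genes compared, *Clec3a*, a cartilage lectin gene, and *Col9a1*, a chain of cartilage collagen IX, were closest to *Adgrg6* over the 8 libraries (Pearson r = 0.96 each, on log2 CPM). *Col9a1* is itself among the 8 chondrocyte markers summed here. Summed osteoblast markers also had every KO library above every WT library, at 8077 to 11616 CPM against 5702 to 8008 CPM. All 8 were positive over both sexes, as were all 8 skeletal muscle markers, whose sums overlapped between the genotypes. Adipocyte sums had the reverse order without overlap. The part of any of these markers in the *Adgrg6* difference was not tested. Schwann cell markers, whose cells need the receptor for myelination, summed to 394 and 322 CPM in male KO, 248 and 217 CPM in male WT, 235 and 236 CPM in female KO, and 252 and 257 CPM in female WT libraries. They were thus higher in KO in males and lower in KO in females, unlike *Adgrg6*.

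**Figure D2:**
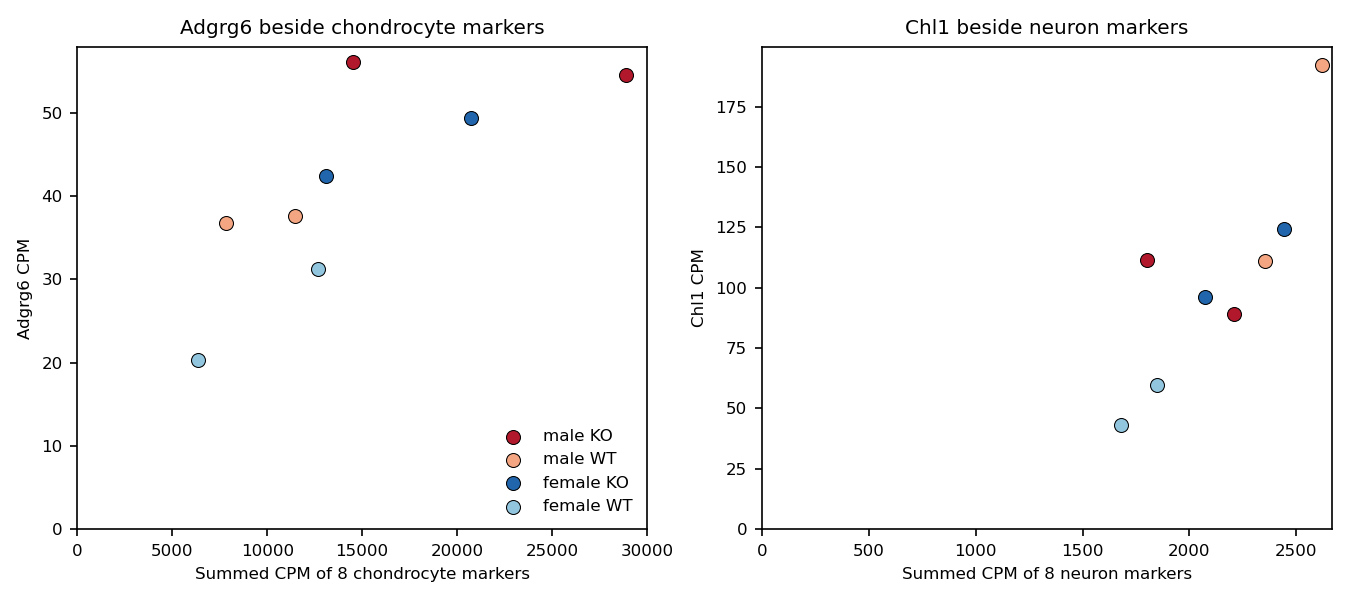
*Adgrg6* level against the summed CPM of 8 chondrocyte markers (left) and *Chl1* level against the summed CPM of 8 neuron markers (right), 1 point per library, coloured by group. *Adgrg6* and the chondrocyte markers both have all 4 KO libraries above all 4 WT libraries, and female WT libraries are lowest for *Chl1*. Summed osteoblast markers, which are not drawn, also have all 4 KO libraries above all 4 WT libraries.

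The fibrillins are the microfibril genes among the 10. *Fbn2* (Entrez gene 14119, chromosome 18) was at 144 and 151 CPM in male KO, 125 and 110 CPM in male WT, 149 and 155 CPM in female KO, and 131 and 79.0 CPM in female WT libraries. KO libraries were higher than WT libraries throughout, and female WT 2 stood lowest. This separation was lost when the trend of values with exon length was removed from each library, an alternative added after seeing the data. The log2 fold change of *Fbn2* over both sexes was 0.43 (SE 0.20, edgeR adjusted p = 0.738), with a fold interval of 0.993 to 1.83. *Fbn1* (Entrez gene 14118, chromosome 2, 125300594 to 125506485) was at 250.3 and 275 CPM in male KO, 278 and 187 CPM in male WT, 248 and 207 CPM in female KO, and 182 and 133 CPM in female WT libraries. The male groups overlapped and the female groups did not. Its value was 0.17 in males (SE 0.30), 0.53 in females (SE 0.30) and 0.35 over both (SE 0.22, edgeR adjusted p = 0.817). Without female WT 2 the female value of *Fbn1* was 0.31 and that of *Fbn2* 0.21. Of the *Fbn1* exons 20.1% lie opposite those of the gene model Gm9913, and the strand setting of the counting was not among the sources used here. *Col9a1* and the sulphate donor synthase *Papss2* had the patterns closest to *Fbn2* (Pearson r = 0.95 and 0.93 over 8 libraries), and *Leng8* and the matrix gene *Ccdc80* those closest to *Fbn1* (0.97 and 0.96).

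Microfibril and elastic fibre partners of the fibrillins, such as latent TGF-beta binding proteins, elastin and lysyl oxidases, had medians of opposite sign in males and females, a contrast that was not tested for the list. Of 25 such genes, 23 had positive values in males (median log2 fold change 0.48, against -0.06 over all tested genes) and 8 in females (median -0.13, against 0.03). None passed an adjusted p of 0.05 in edgeR in either sex, and at an unadjusted p under 0.05 there were 5 in males and 1 in females, all higher in KO, against 7.53% of all genes in males and 4.53% in females. Endothelium markers summed to 534 and 419 CPM in male KO, 381 and 219 CPM in male WT, 390 and 417 CPM in female KO, and 470 and 678 CPM in female WT libraries, and 7 of 8 had positive values in males and 1 of 8 in females. Connective tissue fibroblast markers summed to 6451 and 11142 CPM in male KO and 12765 and 10844 CPM in male WT libraries. In females they summed to 9394 and 5976 CPM in KO and 5481 and 4693 CPM in WT libraries. Of these 8 markers, 4 had positive values in males and 6 in females. The part of endothelium or fibroblast markers in the microfibril values was not tested. *Lox*, the cross-linking enzyme of collagen and elastin, had 0.56 over both sexes (SE 0.23, edgeR adjusted p = 0.719). Unlike the list median, *Lox* was larger in females (0.77, SE 0.32) than in males (0.34, SE 0.31). *Thsd4*, which encodes a fibrillin-binding ADAMTS-like protein, had 0.44 over both sexes (SE 0.21, edgeR adjusted p = 0.752). It was at 0.67 in males (SE 0.29) and 0.22 in females (SE 0.28).

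In males, KO libraries were compared with WT libraries to see which of the 10 genes differ there. *Chd7*, *Bnc2* and *Ptk7* had the largest values, and each had both male KO libraries above both male WT libraries. Together with *Adgrg6*, *Fbn2* and *Poc5* that made 6 of 10 genes with this order, against 19.7% of tested genes, and 0 with the reverse, against 23.9%. At an unadjusted p under 0.05 there were 4 members, *Chd7*, *Bnc2*, *Ptk7* and *Adgrg6*, all higher in KO, against 7.53% of all genes as higher and 7.29% as lower. With the mitochondrial share as a covariate in edgeR, *Chd7* kept such a p (0.0236). *Bnc2* (0.0884), *Adgrg6* (0.170) and *Ptk7* (0.569) did not, and *Lbx1* reached it as lower in KO (0.0167). Positive values were found for 7 of 10 members, against 45.4% of all genes. In edgeR 0 members and 0% of all genes passed the adjusted threshold. DESeq2 called *Chd7* alone among the members, beside 2.66% of all genes, and limma voom called 0 members and 0 genes.

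*Chd7* (Entrez gene 320790, chromosome 4, 8690402 to 8868449) was at 24.7 and 21.5 CPM in male KO and at 12.9 and 11.3 CPM in male WT libraries. In females it was at 15.3 and 19.9 CPM in KO and at 18.1 and 18.9 CPM in WT libraries. Male WT was the low group, and the 3 other groups lay within 15.3 to 24.7 CPM. *Chd7* had a log2 fold change of 0.93 in males (SE 0.23, edgeR adjusted p = 0.235, DESeq2 adjusted p = 0.0272) and -0.07 in females (SE 0.22, edgeR adjusted p = 0.906). The sexes differed by -1.01 (female minus male value, SE 0.32, unadjusted p = 0.0119, edgeR adjusted p = 0.255). The male value stayed between 0.83 and 1.04 when any single library was dropped. With the mitochondrial share as a covariate, *Chd7* was at 0.67 in males (SE 0.24) and at -0.67 in the difference between the sexes (SE 0.33). Over 8 libraries its pattern was closest to the adaptor gene *Gab2* and the choline transporter gene *Slc44a1* (Pearson r = 0.99 each).

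*Bnc2* (Entrez gene 242509, chromosome 4, 84266804 to 84676029) was at 15.5 and 10.8 CPM in male KO and 6.61 and 7.40 CPM in male WT libraries. Female KO libraries had 10.2 and 12.7 CPM, and female WT libraries 11.4 and 11.4 CPM. As with *Chd7*, male WT stood below the rest. In males the log2 fold change was 0.91 (SE 0.26, edgeR adjusted p = 0.247) and in females 0.01 (SE 0.25, edgeR adjusted p = 0.992), with a difference between the sexes of -0.90 (SE 0.36, edgeR adjusted p = 0.281). Without male KO 1 the male value was 0.62. With the mitochondrial share, which was highest in male WT, as a covariate, *Bnc2* was at 0.51 in males (SE 0.27) and at -0.41 in the difference between the sexes (SE 0.36). The acetyltransferase gene *Kat6a* and the kinesin gene *Kif13b* were closest in pattern (Pearson r = 0.99 each over 8 libraries).

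*Ptk7* (Entrez gene 71461, chromosome 17, 46564451 to 46630049) was at 97.5 and 51.1 CPM in male KO, 47.2 and 29.4 CPM in male WT, 55.4 and 72.1 CPM in female KO, and 85.2 and 67.0 CPM in female WT libraries. In males both KO libraries were higher, with male KO 2 close to male WT 1, and the female groups overlapped. Log2 fold changes were 0.96 in males (SE 0.36, edgeR adjusted p = 0.297) and -0.26 in females (SE 0.36, edgeR adjusted p = 0.782), and the difference between the sexes was -1.21 (SE 0.51, edgeR adjusted p = 0.287). Without male KO 1, the highest library, the male value was 0.42, and over both sexes it was 0.02. With the mitochondrial share as a covariate, *Ptk7* was at 0.18 in males (SE 0.30) and at -0.23 in the difference between the sexes (SE 0.42). *Setd1a*, a histone methyltransferase gene, and *Ccdc88c*, which encodes a Dishevelled-binding protein, were closest to it over the 8 libraries (Pearson r = 0.99 each).

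Other planar cell polarity genes had 20 of 24 positive values in males (median log2 fold change 0.20) and 12 of 24 in females (median 0.01), beside medians of -0.06 and 0.03 over all tested genes. None passed an adjusted p of 0.05 in edgeR. *Fzd6*, a Frizzled receptor of the pathway, had 0.84 in males (SE 0.21, edgeR adjusted p = 0.239) and 0.16 in females (SE 0.21, edgeR adjusted p = 0.773). The other chromodomain helicases had 8 of 9 positive values in males (median 0.40) and 7 of 9 in females (median 0.06), with *Chd6* at 0.69 in males (SE 0.22, edgeR adjusted p = 0.266) and *Chd2* at 0.63 (SE 0.21, edgeR adjusted p = 0.275).

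**Figure D3:**
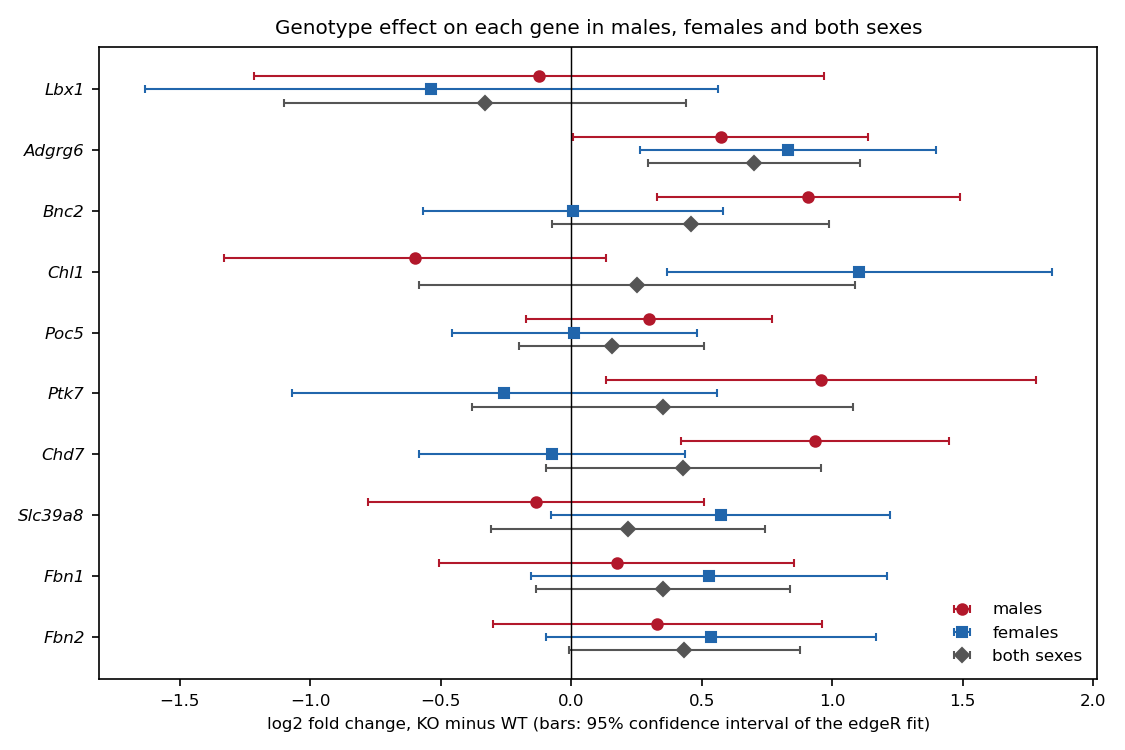
Log2 fold change of each gene, KO minus WT (horizontal axis), in males (circles), females (squares) and both sexes (diamonds), with bars for the 95% confidence interval of the edgeR fit, unadjusted for the number of genes. Intervals lie above 0 for *Adgrg6* in each comparison, for *Bnc2*, *Ptk7* and *Chd7* in males, and for *Chl1* in females.

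In females the same comparison was made. *Chl1* and *Adgrg6* had the largest values and were the 2 members with an unadjusted p under 0.05, both higher in KO, against 4.53% of all genes as higher and 4.74% as lower. With *Slc39a8*, *Fbn1* and *Fbn2*, 5 of 10 genes had both female KO libraries above both female WT libraries, an order seen in 25.9% of tested genes, and 0 had the reverse, seen in 26.2%. No member passed the adjusted threshold in edgeR, DESeq2 or limma voom, where 0%, 0.795% and 0% of all genes did. Values were positive for 7 of 10 members, against 52.6% of all genes. The 10 genes had a median log2 fold change of 0.27, against 0.03 over all tested genes, and in males a median of 0.31 against -0.06.

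*Chl1* (Entrez gene 12661, chromosome 6, 103510584 to 103733038, plus strand) had the widest span of the 10 genes, with its highest library 4.46 times its lowest. It was at 96.1 and 124 CPM in female KO and at 59.5 and 43.1 CPM in female WT libraries. In males it was at 89.2 and 111.3 CPM in KO and at 111.2 and 192 CPM in WT libraries. The female groups were apart, and the male groups met at 111 CPM. Its log2 fold change was 1.10 in females (SE 0.32, edgeR adjusted p = 0.532), a fold of 2.15 with a 95% interval of 1.29 to 3.59, and -0.60 in males (SE 0.32, edgeR adjusted p = 0.396). The sexes differed by 1.70 (female minus male value, SE 0.46, unadjusted p = 0.00505, edgeR adjusted p = 0.243, limma voom adjusted p = 0.271), which DESeq2 called (adjusted p = 0.0472, 2% of all genes called). This difference stayed between 1.25 and 2.04 when any single library was dropped, and the male value was -0.15 without male WT 2.

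The 8 neuron markers summed to 2209 and 1801 CPM in male KO, 2355 and 2620 CPM in male WT, 2073 and 2443 CPM in female KO, and 1847 and 1678 CPM in female WT libraries. KO libraries were thus lower in males and higher in females, the same directions as for the *Chl1* means, and the part of the neuron markers in the *Chl1* values was not tested. The genes closest to *Chl1* over the 8 libraries were *Mdga2*, a synaptic adhesion gene, and *Slc4a10*, a neuronal bicarbonate transporter gene (Pearson r = 0.997 and 0.996, on log2 CPM). Relatives and partners of *Chl1* in the L1 family had 14 of 14 positive values in females (median log2 fold change 0.66), 6 of them at an unadjusted p under 0.05 as higher, and 6 of 14 in males (median -0.03). Over all genes 52.6% were positive in females and 4.53% reached that p as higher. None passed the adjusted threshold in edgeR. *Ank3*, the ankyrin G gene, had 0.72 in females (SE 0.21, edgeR adjusted p = 0.532) and 0.12 in males (SE 0.21, edgeR adjusted p = 0.7995).

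*Slc39a8* (Entrez gene 67547, chromosome 3, 135816882 to 135888572) was at 17.0 and 13.2 CPM in female KO and at 9.06 and 11.2 CPM in female WT libraries. Male libraries had 15.6 and 23.6 CPM in KO and 18.6 and 24.3 CPM in WT. The female KO libraries were the higher of the female pairs, and the male groups overlapped. Log2 fold changes were 0.57 in females (SE 0.28, edgeR adjusted p = 0.548) and -0.13 in males (SE 0.28, edgeR adjusted p = 0.834). Over both genotypes the gene was lower in females than in males by the means, with a log2 fold change of -0.72 (SE 0.23, unadjusted p = 0.0123, edgeR adjusted p = 0.478). It was -1.08 in WT (SE 0.29), where the sexes did not overlap, as for 66.1% of tested genes. In KO it was -0.37 (SE 0.28), and the sexes overlapped. No other member had an unadjusted p under 0.05 between the sexes over both genotypes, a mark that 3.38% of all genes reached as higher and 5.29% as lower in females. In that comparison 4 of 10 members had positive values, against 49.5% of all genes, and no member was called by edgeR, DESeq2 or limma voom, which called 0.0166%, 1.3% and 0.0276% of genes. With the mitochondrial share as a covariate, its difference between the sexes in the genotype effect was 0.065 (SE 0.36), against 0.71 (SE 0.40) without it. The clock gene *Nr1d2* and the cytokine inhibitor gene *Socs2* had the nearest patterns (Pearson r = 0.99 each over 8 libraries). Among the other ZIP transporters and metal-responsive genes, 11 of 18 had positive values in males and 8 of 18 in females, and none passed the adjusted threshold in edgeR. *Mt2*, a metallothionein that binds zinc, had 2.06 in males (SE 0.36, edgeR adjusted p = 0.184) and 0.34 in females (SE 0.35, edgeR adjusted p = 0.702).

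*Lbx1* and *Poc5*, like every other member in edgeR, did not pass the adjusted threshold in any comparison. *Lbx1* (Entrez gene 16814, chromosome 19, 45232684 to 45236841) was at 4.25 and 1.60 CPM in male KO, 2.91 and 3.48 CPM in male WT, 1.84 and 3.10 CPM in female KO, and 4.18 and 2.99 CPM in female WT libraries. The male KO libraries were the highest and the lowest of all 8, and KO and WT overlapped in both sexes. Its log2 fold change was -0.33 over both sexes (SE 0.34, edgeR adjusted p = 0.935), the 1 negative value among the 10 genes, and the 95% interval of the fold, 0.466 to 1.36, includes changes in either direction. Leaving out 1 library moved the value over both sexes between -0.72 and -0.14, the first without male KO 1 and the second without male KO 2. With the mitochondrial share as a covariate it was -1.32 in males (SE 0.44, unadjusted p = 0.0167, edgeR adjusted p = 0.308) and -0.66 over both sexes (SE 0.27, unadjusted p = 0.0382, edgeR adjusted p = 0.374). Genes of dorsal spinal interneurons, a lineage of *Lbx1*, had 2 of 12 positive values in males (median -0.47) and 10 of 12 in females (median 0.41), and muscle progenitor genes had 7 of 11 and 6 of 11. None of either list passed the adjusted threshold in edgeR. The general neuron markers had the same directions as the interneuron list, with 2 of 8 positive in males (median -0.45) and 8 of 8 in females (median 0.51). *Lor*, the loricrin gene of the epidermal cornified envelope, had the pattern nearest to *Lbx1* (Pearson r = 0.98 over 8 libraries), followed by *Ccdc92b* (0.97).

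*Poc5* (Entrez gene 67463, chromosome 13, 96388259 to 96417211) was the steadiest of the 10 genes, with its highest library 1.36 times its lowest. It was at 19.3 and 16.7 CPM in male KO, 15.0 and 14.3 CPM in male WT, 16.8 and 19.2 CPM in female KO, and 17.6 and 18.0 CPM in female WT libraries. Male KO lay above male WT by a small margin, and the female groups overlapped. Over both sexes the log2 fold change was 0.16 (SE 0.16, edgeR adjusted p = 0.934), with a fold interval of 0.872 to 1.42. Of its exons 25.7% lie opposite those of *Ankdd1b*, which was counted at 3.19 to 7.33 CPM, and reads of the pair cannot be told apart unless the counting used strand. Other centriole and cilium genes had 8 of 19 positive values in males (median -0.15) and 13 of 19 in females (median 0.20), and none passed the adjusted threshold in edgeR. The chromatin gene *Setd5* and the elongation factor gene *Rtf1* were closest to *Poc5* (Pearson r = 0.98 each over 8 libraries).

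**Figure D4:**
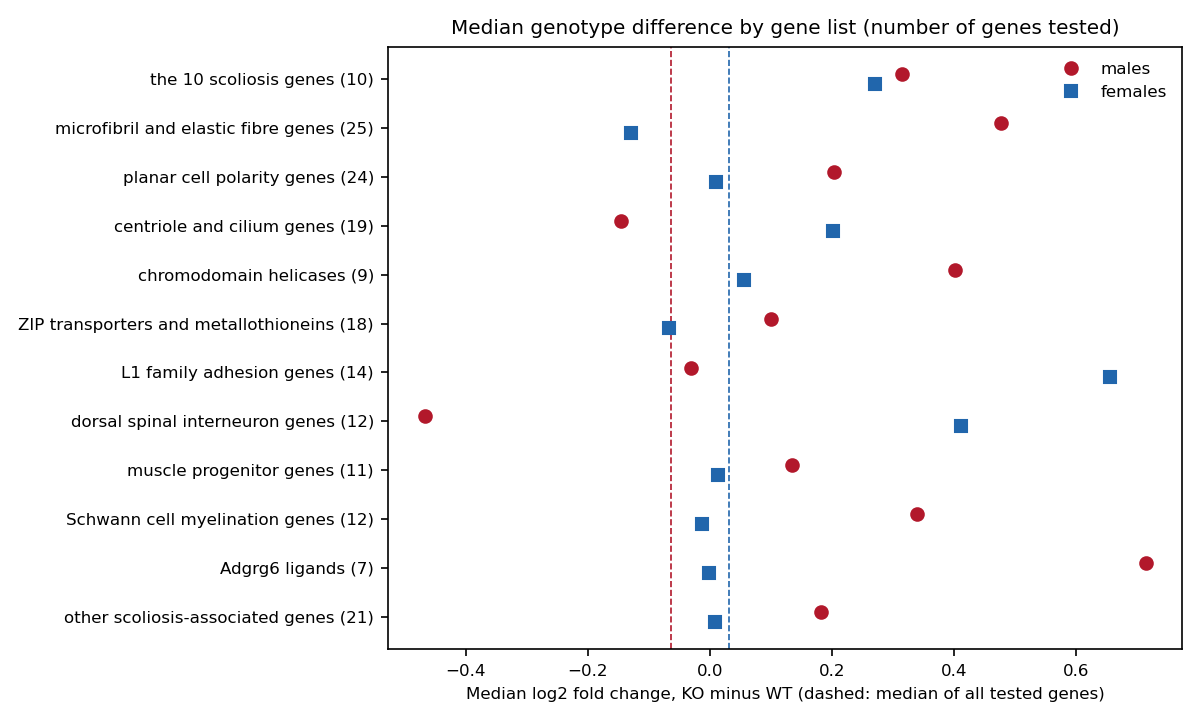
Median log2 fold change, KO minus WT (horizontal axis), of the 10 genes and of each list of related genes in males (circles) and females (squares), with dashed lines at the medians of all tested genes (-0.06 in males, 0.03 in females). The microfibril list lies at 0.48 in males and -0.13 in females, and the dorsal interneuron list at -0.47 in males and 0.41 in females. General neuron markers, which are not drawn, have medians of -0.45 in males and 0.51 in females.

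The remaining lists of related genes also had no member past the adjusted threshold in edgeR. Proposed binding partners of *Adgrg6*, among them collagen IV chains, laminin subunits and the prion protein, had 6 of 7 positive values in males (median 0.71) and 3 of 7 in females (median -4.77e-04), beside endothelium markers that were positive for 7 of 8 in males and 1 of 8 in females. Their part in these values was not tested. *Lama2*, the laminin chain of muscle and nerve basement membranes, had 0.61 over both sexes (SE 0.18, edgeR adjusted p = 0.633). Schwann cell myelination genes had 11 of 12 positive values in males (median 0.34), 6 of 12 in females (median -0.012) and 12 of 12 over both sexes (median 0.29). A further 21 tested genes reported near scoliosis loci or in affected families had 14 positive values in males (median 0.18), 11 in females (median 0.0080) and 15 over both sexes (median 0.24), led by *Col11a2*, a chain of cartilage collagen XI, at 1.23 (SE 0.46, edgeR adjusted p = 0.695).

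The sexes were then compared within each genotype, a comparison added after the values were seen, because several effects differed in sign between males and females. In KO libraries 3 of the 10 genes did not overlap between the sexes, all lower in females (*Adgrg6*, *Chd7*, *Fbn1*). In WT libraries 8 did not overlap, 4 higher in females (*Bnc2*, *Chd7*, *Poc5*, *Ptk7*) and 4 lower (*Adgrg6*, *Chl1*, *Fbn1*, *Slc39a8*). Among all tested genes 31% were higher and 35.1% lower in both female WT than in both male WT libraries. The share without overlap was 28.6% in KO and 66.1% in WT, so the members' share is near that of all genes in both genotypes. An unadjusted p under 0.05 was reached by 4.95% of all genes between female and male KO and by 27.3% between female and male WT libraries. *Chl1* averaged 110.3 CPM in female KO and 100.2 CPM in male KO libraries (log2 fold change 0.14, SE 0.32, edgeR adjusted p = 0.999). In WT it averaged 51.3 CPM in females and 152 CPM in males (log2 fold change -1.56, SE 0.33, edgeR adjusted p = 0.102). *Ptk7* averaged 63.7 CPM in female KO and 74.3 CPM in male KO libraries (-0.22, SE 0.36, edgeR adjusted p = 0.999). Its WT means were 76.1 CPM in females and 38.3 CPM in males (0.99, SE 0.36, edgeR adjusted p = 0.141). Past the adjusted threshold were 0.011% of genes in KO and 0.00552% in WT, and no member.

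**Figure D5:**
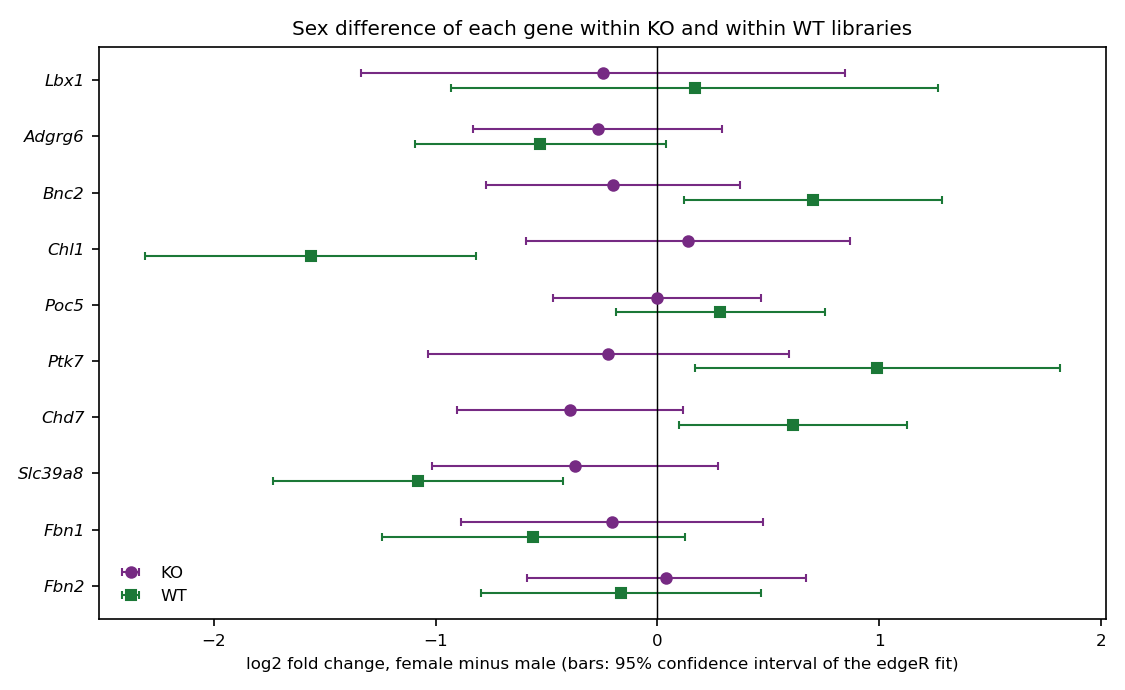
Log2 fold change of each gene, female minus male (horizontal axis), within KO (circles) and within WT libraries (squares), with bars for the 95% confidence interval of the edgeR fit. In KO every interval spans 0, and in WT the intervals lie above 0 for *Bnc2*, *Ptk7* and *Chd7* and below 0 for *Chl1* and *Slc39a8*.

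Subtracting the male effect from the female effect tests the difference between the sexes directly. At an unadjusted p under 0.05 were *Chl1* as higher and *Chd7*, *Bnc2* and *Ptk7* as lower in females, 4 of 10 members, against 9.61% of all genes as higher and 7.13% as lower. Values were positive for 5 of 10 members, against 51.7% of all genes. In edgeR 0 members and 0% of all genes passed the adjusted threshold. Members are long genes: exon lengths were 5384 to 13786 bases for the 9 other than *Lbx1* (2484 bases). Across 16421 tested genes, which are no independent replicates, exon length and the KO minus WT value had a Spearman correlation of 0.244 in males, 0.162 in females and 0.355 over both sexes, and the 6097 genes of 5 to 14 kilobases had a median of 0.08 over both sexes. With the length trend of each library removed, an alternative added after seeing the data, the value over both sexes was 0.53 for *Adgrg6* and 0.25 for *Fbn2*. Then 1 gene, not 2, stayed higher in every KO library: *Adgrg6* kept this order and *Fbn2* did not. The male values were then 0.76 for *Chd7*, 0.81 for *Bnc2* and 0.92 for *Ptk7*, and the *Chl1* difference between the sexes was 1.65. Male *Fbn1* was at 0.0091, against 0.17 with the trend kept, and male *Fbn2* at 0.16, against 0.33. Over both sexes *Fbn1* was at 0.19, against 0.35, and *Chl1* at 0.088, against 0.25. Every positive member value over both sexes became smaller and stayed positive.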

How the data were processed

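The authors deposited 1 table of raw read counts per gene (Entrez gene ID) for 8 libraries of whole E18.5 spine. The submitters' processing notes name HISAT2, featureCounts, FastQC, MultiQC and mm10, and a stranded mRNA kit was used, per the labels' protocols. Not given in the sources used here: the counting annotation, its strand setting and how reads with several matches were treated. Of 27179 genes, 25275 were named from RefSeq (GRCm38.p6) and 18 from GENCODE M21, and 1886 stayed unnamed. Exon lengths are unions of GENCODE M21 exons.

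The filter on low counts (filterByExpr, minimum count 10) kept 18104 genes. These were fitted in edgeR 4.0.16 (R 4.3.3) with TMM and quasi-likelihood tests, with group means (4 residual degrees of freedom) for effects within a sex and an additive fit of sex and genotype (5) over both. Adjusted p-values are Benjamini-Hochberg over all 18104 genes, with a threshold of 0.05, all two-sided. The SE is the log2 fold change divided by the square root of F. DESeq2 1.42.0 and limma 3.58.1 (voom) were alternatives, as were another scaling, no filter, a replicate block, mitochondrial corrections and leaving out each library. The edgeR script was tested on simulated data. No pair of replicate libraries was a duplicate (chi-square over degrees of freedom 131 to 645), so all 8 were kept. Precision is limited by 2 libraries per group (median SE 0.32 within a sex), and counting intervals would cover counting error only.

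The members and gene lists were chosen with earlier results of these data known. The named genes are the 10 members, the 2 genes of each list with the smallest p over both sexes (not all are described), and for each member the 2 genes with the highest Pearson correlation of log2 CPM over the 8 libraries among named genes with a mean of at least 1 CPM, which is a description chosen from many genes and carries no p. Each cell type was represented by 8 markers.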

Additional observations from a re-analysis of the deposited data

How the results depend on the processing

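No member passed an adjusted p of 0.05 in edgeR under TMM or RLE scaling, without the filter, with the replicate block, without mitochondrial genes in the library size, with the mitochondrial share as a covariate, in limma voom, or when any 1 library was left out. In males DESeq2 called 1 member, *Chd7*, and in the difference between the sexes 1, *Chl1*. The number of genes called moved more. DESeq2 called 481 in males, 144 in females, 362 in the difference between the sexes, 141 over both sexes and 235 between the sexes, against 0, 0, 0, 0 and 3 in edgeR. Without the filter the counts were 39 in males, 1 in the difference and 12 between the sexes. limma voom called 5 genes between the sexes, and the mitochondrial covariate gave 2 in females and 7 between the sexes. Leaving out 1 library gave 0 to 33 in females (33 without female WT 2), 0 to 9 in the difference between the sexes, 2 to 35 between the sexes, and 0 in males and over both. An alternative added after seeing the data dropped male WT 1 and female WT 2, the WT libraries with the most adipocyte RNA, and gave 24 genes in females and 1 in the difference. The cause was not tested.

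The replicate numbers did not pair the libraries: correlations of their deviations ran from -0.53 to 0.18. With the replicate block 0 members were called in any comparison.

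Members higher in every KO than in every WT library numbered 2, 1 (*Adgrg6*) with the length trend removed (also added after seeing the data), and 2 to 3 when 1 library was left out. Some values near 0 turned sign. In females, *Bnc2* was at -0.0089 and *Poc5* at -0.0044 under RLE, -0.0088 and -0.0043 in DESeq2, and -0.095 and -0.031 without the length trend, where male *Lbx1* was at 0.024. With the mitochondrial covariate, male *Slc39a8* was at 0.36, the *Lbx1* difference between the sexes at 1.03, and the female minus male values of *Bnc2*, *Poc5*, *Ptk7* and *Chd7* at -0.12, -0.0095, -0.16 and -0.26. Without male WT 1 and female WT 2, *Bnc2* in females was at -0.0077, the differences between the sexes of *Adgrg6*, *Fbn1* and *Fbn2* at -0.10, -0.23 and -0.28, *Chl1* over both sexes at -0.10, and *Chd7* and *Fbn2* between the sexes at -0.046 and 0.11. The cause was not tested.

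Leaving out 1 library turned the sign of these values. In males *Lbx1* ran from -0.999 to 0.41, *Slc39a8* from -0.46 to 0.13 and *Fbn1* from -0.081 to 0.49. In females *Bnc2* ran from -0.16 to 0.16, *Poc5* from -0.088 to 0.11 and *Chd7* from -0.28 to 0.10. The difference between the sexes ran from -0.95 to 0.46 for *Lbx1*, -0.055 to 0.57 for *Adgrg6* and -0.15 to 0.58 for *Fbn2*. *Chl1* over both sexes ran from -0.030 to 0.58. Between the sexes *Lbx1* ran from -0.23 to 0.35, *Chd7* from -0.043 to 0.29 and *Fbn2* from -0.19 to 0.094. With 2 libraries a group, the depth of *Lbx1* (86 to 325 reads) and the median SE of 0.32 within a sex limit what could be detected.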
